A study of Mus musculus with 3 samples.

Results

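The interferon genes described here are the mouse genes whose symbols name interferon-inducible proteins, interferon receptor chains, interferon regulatory factors (Irf) or Stat factors. They were chosen by symbol among the array's oligonucleotides that carry exactly 1 gene symbol, and 48 of 15096 such symbols matched. Each of the 48 was measured by 1 oligo. A value on all 3 arrays was held by 45 of them, Irf4 and Mx2 had a value on 2 arrays, and Stat5a on 1. A further 41 symbols of the same pattern in the RefSeq annotation, Bst2 and Ifngr2 among them, had no oligo named so and are not analysed here. The group was proposed with these ratios known, so its values are given as a description and support no test.

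The study set 13.5 dpc (days post coitum) kidney against 10.5 dpc metanephric mesenchyme directly on 3 arrays of 2 colours, with no common reference. Both tissues came from CD1 mouse embryos by microdissection, as a pool of both sexes and with no treatment or mutation named, and their RNA was amplified before labelling. Whether each array had a tissue pool of its own is not stated in the labels, and the spread between arrays may therefore be technical. The labels do not state which RNA is the numerator of the ratio or which array had its dyes swapped. Ratios therefore keep the sign they were deposited with, and neither sign is read as higher in the kidney or in the mesenchyme. Of 16 kidney markers, 11 were positive and 1 negative on all 3 arrays, beside 21.5% and 19.9% of all genes tested. Their median was 0.70, from -0.57 ± 0.067 for Osr1 to 3.31 ± 0.48 for Cdh16 (mean log2 ratio, SD, n = 3 arrays). Of 11 erythroid markers 7 were negative and 2 positive on all arrays, with a median of -0.31, from -3.95 ± 0.32 for Hbb-bh1 to 0.42 ± 0.41 for Slc4a1. A ratio gives no level in either tissue, so whether a gene was expressed at all in them is not shown. Across 19635 genes the log2 ratios of arrays 1 and 2 had a Pearson correlation of 0.464, those of arrays 1 and 3 of 0.166 and those of arrays 2 and 3 of 0.162, so array 3 stood apart from the others.

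Interferons are secreted proteins that alarm cells to viruses and other microbes. Type I interferons bind the receptor of Ifnar1 and Ifnar2, and interferon gamma binds a receptor that holds Ifngr1. The receptors act through Jak kinases and Stat factors. A complex that holds Stat2 and Irf9 binds the interferon-stimulated response element in the promoters of antiviral genes, and the response to interferon gamma runs through the gamma-activated site. Cells without infection also carry basal levels of many of these genes, and in the mouse embryo Ifitm1 and Ifitm3 are known markers of forming germ cells.

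As a group the interferon genes lay around 0. Of the 45 genes with 3 values, 27 had a positive and 18 a negative mean, against 50.3% positive over all genes. Their median log2 ratio was 0.061, beside 0.0020 over all genes tested. The median moved with the arrays, at 0.050, -0.012 and 0.11 on arrays 1, 2 and 3, and was -0.022 without array 3. The median SD over arrays was 0.32 for the interferon genes and also 0.32 for all genes. In 37 of the 45 genes the mean was under 0.5 in size. The bulk tissues hold many cell types, so fewer cells of a type and less RNA per cell cannot be told apart in any of these ratios.

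A mean beyond 1 log2 unit, with 1 sign on all arrays, was seen in 3 of the 45, beside 4.58% of all genes. They were Ifi27 on the positive side and Irf3 and Stat3 on the negative side. At 0.5 in size there were 7, beside 17.2% of all genes, and the further 4 were Ifi27l2a, Ifitm3, Ifi202b and Ifit3. Of the 45, 9 were positive and 7 negative on all arrays, beside 21.5% and 19.9% of all genes. In the remaining 29 the sign differed between arrays, beside 58.7% of all genes. In limma, a linear-model test fitted to all genes, 0 of the 45 passed a Benjamini-Hochberg adjusted p of 0.05, beside 0.00509% of all genes. At an unadjusted p of 0.05, 10 of the 45 were called, beside 16.8% of all genes. Of these, 5 were positive, beside 8.99% of all genes, and 5 negative, beside 7.83%. These shares describe genes picked by name with the ratios in view, and nothing is read from the differences.

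**Figure D1:**
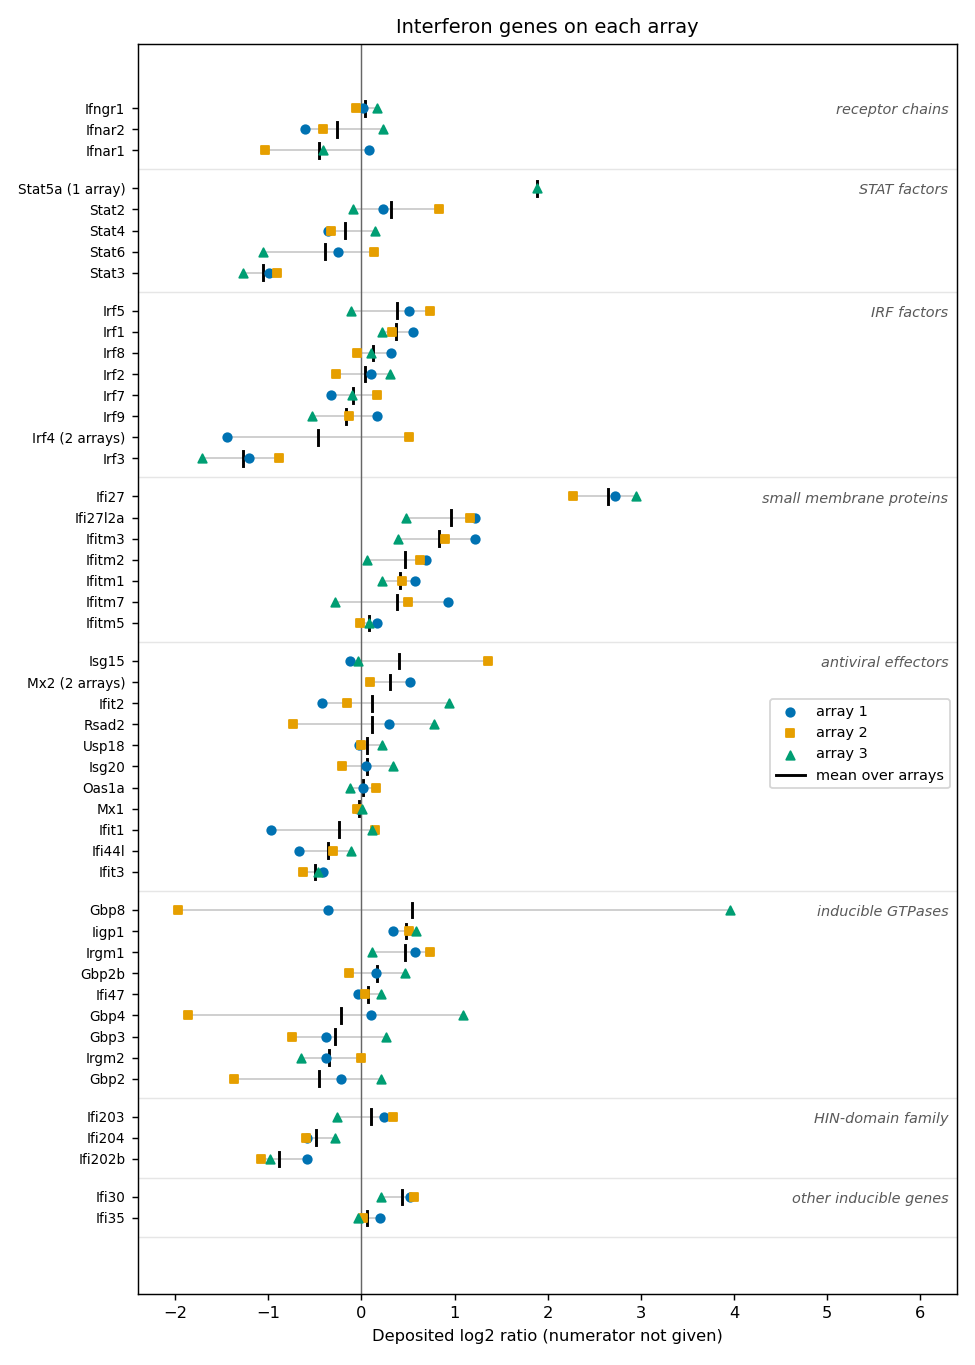
Deposited log2 ratio (x axis) of each of the 48 interferon genes (rows, grouped by role), with 1 point per array and a black bar at the mean over arrays. Ifi27 lies at 2.27 or above on all arrays, Irf3 and Stat3 lie at -0.89 or below, and the array 3 value of Gbp8 is 3.96.

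**Figure D2:**
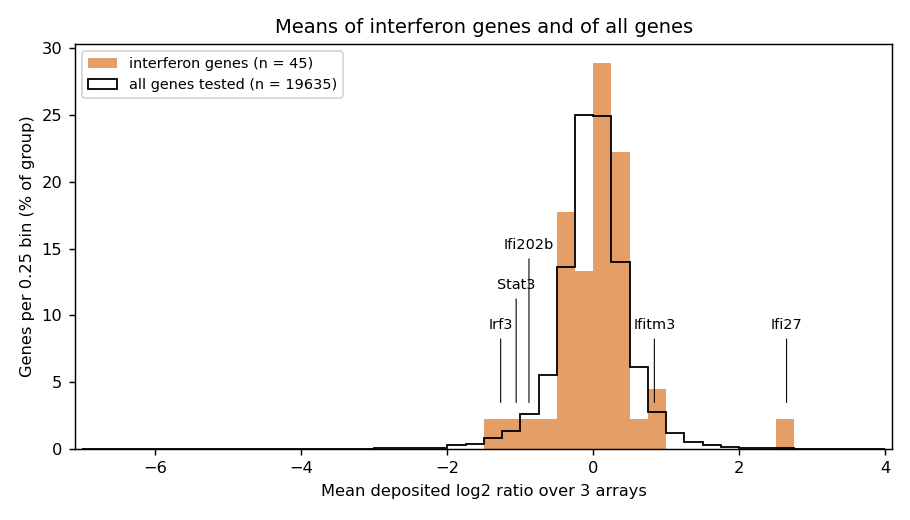
Share of genes (y axis, percent of each group) by mean deposited log2 ratio over 3 arrays (x axis, bins of 0.25), for the 45 interferon genes with 3 values (filled) and all 19635 genes tested (outline). Both are centred near 0, with medians of 0.061 and 0.0020, and Ifi27 at 2.65 is the interferon gene farthest from 0.

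The small membrane proteins held the genes farthest on the positive side. Ifi27, a small hydrophobic protein of intracellular membranes, had log2 ratios of 2.73, 2.27 and 2.95 on arrays 1, 2 and 3, a mean of 2.65 ± 0.35 (SD, n = 3 arrays) and a 6.27-fold difference between the tissues. All 3 arrays were high, and the mean was the 8th highest of 19635. Ifi27l2a, its neighbour in the genome and a member of the same family, had 1.22, 1.17 and 0.48, a mean of 0.96 ± 0.41. Arrays 1 and 2 were close to each other and array 3 lay below both. Both oligos carry 1 symbol, but whether either also binds RNA of the other gene, or of Ifi27l2b, was not tested.

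The Ifitm proteins sit in cell and endosome membranes, and several of them block the entry of viruses. Ifitm3 had 1.22, 0.90 and 0.39 on arrays 1, 2 and 3, a mean of 0.84 ± 0.42. Ifitm2 had 0.69, 0.63 and 0.064, a mean of 0.46 ± 0.35, and Ifitm1 had 0.57, 0.44 and 0.22, a mean of 0.41 ± 0.18. In these 3 genes all arrays were positive, array 1 was highest and array 3 lowest. Whether the oligo of any of them also binds RNA of the other Ifitm genes was not tested. Ifitm7 had 0.93, 0.50 and -0.29, so array 3 lay on the other side, and its mean was 0.38 ± 0.62. Ifitm5, known for its role in bone-forming cells, had 0.17, -0.012 and 0.084 and so stayed near 0. All 7 genes of this class had a positive mean, beside 50.3% of all genes, and their median was 0.46. Of the 7, 5 were lowest on array 3, as were 40.6% of all genes.

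The sequences before 3 neighbouring Ifitm genes show how members with like ratios differ in their promoters. They are RefSeq windows of build GRCm38.p6, from 250 bases before to 30 after the annotated start, printed 5′ to 3′ on the gene's strand. Capitals mark 2 motifs searched on both strands. One is the core of the interferon-stimulated response element, GAAA, any 2 bases and GAAA again, and the other is the gamma-activated site, TTCNNNGAA.
Ifitm1 promoter (chr7:140967826-140968105, plus strand): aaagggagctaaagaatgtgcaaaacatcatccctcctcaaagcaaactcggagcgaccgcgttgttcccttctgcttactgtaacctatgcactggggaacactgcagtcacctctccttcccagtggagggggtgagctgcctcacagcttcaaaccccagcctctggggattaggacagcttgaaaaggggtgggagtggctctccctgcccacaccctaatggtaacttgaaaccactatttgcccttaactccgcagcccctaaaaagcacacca
Ifitm2 promoter (chr7:140955932-140956211, minus strand): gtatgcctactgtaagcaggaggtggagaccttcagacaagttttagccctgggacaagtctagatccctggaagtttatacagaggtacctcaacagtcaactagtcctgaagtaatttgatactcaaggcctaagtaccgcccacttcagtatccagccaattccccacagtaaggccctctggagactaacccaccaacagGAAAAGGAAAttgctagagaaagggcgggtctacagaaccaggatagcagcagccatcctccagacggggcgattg
Ifitm3 promoter (chr7:141010715-141010994, minus strand): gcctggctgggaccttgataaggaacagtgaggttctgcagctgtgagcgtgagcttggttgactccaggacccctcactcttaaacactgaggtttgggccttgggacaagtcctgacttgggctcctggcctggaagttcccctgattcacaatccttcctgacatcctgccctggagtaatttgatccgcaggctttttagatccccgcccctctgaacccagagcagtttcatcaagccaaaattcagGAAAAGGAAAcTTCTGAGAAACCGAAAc
Ifitm1 held neither motif in this window. Ifitm2 held 1 response element match, which began 46 bases before the start. Ifitm3 held 2 response element matches and 1 gamma-activated site match, all after the annotated start, and the site match shares bases with the second element match.

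Genes with and without either motif had means of both signs. Of 39 interferon genes with a window in the table, 16 held the response element core, or 41.0%, against 3.80% of 27025 genes with a window. The gamma-activated site was held by 12 of the 39, or 30.8%, against 9.04% of genes. A filter by chromosome was applied to the windows of the interferon genes and not to those of the 27025 genes. Both motifs were found in 4 genes (Oas1a, Ifitm3, Irf2 and Irgm2) and neither in 15. Among the 16 genes with the response element core, 10 had a positive mean and the median was 0.073. Among the 21 measured genes whose windows lacked it, 12 had a positive mean and the median was 0.059. With the gamma-activated site, 8 of 12 genes had a positive mean and the median was 0.051. Without it, 14 of 25 did and the median was 0.069. A match is a run of letters and not a shown site of binding.

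The next windows are printed because their genes are the textbook targets or lie at the ends of the range. Isg15 and Ifit3 are classical targets of the response element, Irf1 of the gamma-activated site, and Irf3 had the lowest mean.
Isg15 promoter (chr4:156200789-156201068, minus strand): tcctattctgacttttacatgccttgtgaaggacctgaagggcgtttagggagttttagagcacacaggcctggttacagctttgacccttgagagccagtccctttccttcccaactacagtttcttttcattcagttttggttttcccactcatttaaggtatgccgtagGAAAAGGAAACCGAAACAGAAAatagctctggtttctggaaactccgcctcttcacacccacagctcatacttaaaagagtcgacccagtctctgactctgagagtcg
Ifit3 promoter (chr19:34583279-34583558, plus strand): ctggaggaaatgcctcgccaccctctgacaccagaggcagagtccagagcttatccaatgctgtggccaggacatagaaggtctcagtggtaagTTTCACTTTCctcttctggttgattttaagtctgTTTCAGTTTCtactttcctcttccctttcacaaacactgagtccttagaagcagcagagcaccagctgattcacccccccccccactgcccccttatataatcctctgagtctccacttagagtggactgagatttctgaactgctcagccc
Irf1 promoter (chr11:53769764-53770043, plus strand): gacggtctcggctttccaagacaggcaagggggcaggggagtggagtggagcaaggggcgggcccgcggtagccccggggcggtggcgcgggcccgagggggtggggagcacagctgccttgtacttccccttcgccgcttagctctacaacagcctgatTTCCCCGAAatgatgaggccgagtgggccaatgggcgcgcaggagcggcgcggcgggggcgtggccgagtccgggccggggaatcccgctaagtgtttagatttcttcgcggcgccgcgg
Irf3 promoter (chr7:44997398-44997677, plus strand): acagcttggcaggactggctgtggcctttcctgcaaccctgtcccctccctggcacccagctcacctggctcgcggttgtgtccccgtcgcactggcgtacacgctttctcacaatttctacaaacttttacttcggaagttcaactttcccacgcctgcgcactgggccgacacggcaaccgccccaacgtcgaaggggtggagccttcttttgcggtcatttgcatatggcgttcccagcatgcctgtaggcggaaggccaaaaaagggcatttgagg
In Isg15 the capitals hold 3 overlapping response element matches, which began 78, 72 and 66 bases before the start. Ifit3 held 2 matches on the opposite strand, seen here as TTTC and TTTC around 2 free bases, at 156 and 122 bases before the start. Irf1 held 1 gamma-activated site match at 90 bases before the start in the window printed, and none in the window of its second annotated start. Neither motif was found in the window of Irf3, or in that of Stat3. Ifi27 had no entry in the table.

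At the entry of the pathway, the receptor chains were mixed in sign. Ifnar1, the signalling chain of the type I receptor, had 0.081, -1.04 and -0.41 on arrays 1, 2 and 3, a mean of -0.45 ± 0.56. Ifnar2, its partner chain, had -0.61, -0.41 and 0.23, a mean of -0.26 ± 0.44. Ifngr1, the ligand-binding chain for interferon gamma, had 0.014, -0.057 and 0.17, a mean of 0.042 ± 0.12. No receptor chain had the same sign on all arrays, and for each of them the SD was larger than the mean in size.

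Among the Stat factors, Stat3, which carries signals of the interleukin-6 family and of growth factors, had the clearest ratio. It had -0.99, -0.90 and -1.27 on arrays 1, 2 and 3, a mean of -1.06 ± 0.19 and a 2.08-fold difference. All arrays were negative and close together, and the mean was the 512th lowest of 19635. Stat2, which acts with Irf9 in the type I response, had 0.23, 0.83 and -0.094, a mean of 0.32 ± 0.47. Stat4, a factor of interleukin-12 signalling, had -0.35, -0.33 and 0.15, and Stat6, a factor of interleukin-4 signalling, had -0.25, 0.13 and -1.06. These 3 changed sign between arrays. Stat5a, which lies next to Stat3 in the genome and acts in prolactin and growth hormone signalling, had 1.88 on array 3 and no value on arrays 1 and 2, so nothing repeats it.

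The Irf factors bind related promoter elements. Irf3, which is activated by the kinase Tbk1 after viral nucleic acid is sensed and then switches on interferon beta, had -1.21, -0.89 and -1.71 on arrays 1, 2 and 3. Its mean was -1.27 ± 0.41, a 2.41-fold difference and the 314th lowest of 19635, with all arrays negative. Irf1, an activator induced by interferon gamma, was the other factor of 1 sign, at 0.55, 0.33 and 0.22, a mean of 0.37 ± 0.17. Irf2, which can oppose Irf1, had 0.10, -0.28 and 0.30, a mean of 0.043 ± 0.29.

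In the rest of the Irf family arrays disagreed in sign. Irf5, a factor of Toll-like receptor signalling, had 0.52, 0.73 and -0.11, a mean of 0.38 ± 0.44, with array 3 low. Irf7, which amplifies the type I response, had -0.33, 0.17 and -0.10, a mean of -0.089 ± 0.25, and Irf9, the DNA-binding partner of Stat2, had 0.17, -0.13 and -0.54, a mean of -0.16 ± 0.36. Irf8, a factor of myeloid cells, had 0.32, -0.053 and 0.10, a mean of 0.12 ± 0.19. Irf4, a factor of lymphocytes, had -1.44 and 0.51 on arrays 1 and 2 and no value on array 3. Neither Stat2 nor Irf9, which act together in the type I response, had a mean farther from 0 than its SD.

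The antiviral effectors, which act against viruses inside cells, had a median of 0.038, and several had a mean near 0. Mx1, a dynamin-like antiviral GTPase that the reference annotation lists as a transcribed pseudogene, had -0.039, -0.047 and 0.0072. Usp18, the protease that removes Isg15 from proteins, had -0.031, -0.0029 and 0.22, and Oas1a, an oligoadenylate synthetase that activates RNase L, had 0.013, 0.16 and -0.13. The exonuclease Isg20 had 0.050, -0.21 and 0.34, a mean of 0.059 ± 0.27. In these 4 genes all means were under 0.1 in size. Mx2 had 0.52 and 0.095 on arrays 1 and 2 and no value on array 3.

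Single arrays carried several of the other effectors. Isg15, a ubiquitin-like protein that is attached to other proteins, had -0.12, 1.36 and -0.035, so array 2 alone was high. Its mean of 0.40 ± 0.83 turned to -0.077 without array 2. Rsad2, the antiviral enzyme viperin, had 0.29, -0.73 and 0.78, a mean of 0.11 ± 0.77. Array 2 stood apart as the low one, and the mean was 0.54 without it and -0.22 without array 3.

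The Ifit proteins bind viral RNA, and their 3 genes lie close together. Ifit3 had -0.41, -0.62 and -0.47, a mean of -0.50 ± 0.11, with all arrays negative and within 0.21 of each other. Ifit1 had -0.97, 0.15 and 0.12, so array 1 alone was low, and its mean of -0.24 ± 0.64 turned to 0.13 without array 1. Ifit2 had -0.43, -0.15 and 0.94, so array 3 alone was high, and its mean of 0.12 ± 0.72 turned to -0.29 without array 3. Ifi44l was negative on all arrays, at -0.67, -0.31 and -0.11, a mean of -0.36 ± 0.29.

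The inducible GTPases attack the membranes around microbes inside cells. Their families differed between arrays. In the guanylate-binding proteins, Gbp8 had -0.35, -1.97 and 3.96 on arrays 1, 2 and 3, a range of 5.93 around a mean of 0.55 ± 3.06, and the mean was 1.80 without array 2 and -1.16 without array 3. Gbp4 had 0.099, -1.86 and 1.09, a mean of -0.22 ± 1.50 that turned to 0.59 without array 2. Gbp2 had -0.22, -1.37 and 0.21, a mean of -0.46 ± 0.81 that was -0.0040 without array 2. Gbp3 had -0.38, -0.75 and 0.27, and Gbp2b 0.16, -0.14 and 0.47. In all 5 array 2 was lowest, array 3 was highest and these 2 arrays had opposite signs. The order from array 2 to array 3 was found in 12 of the 45 interferon genes, beside 16.0% of all genes. Gbp2, Gbp2b and Gbp3 are neighbours in the genome, as are Gbp4 and Gbp8, and related sequences may share label on these oligos, which was not tested.

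The 4 immunity-related GTPases matched by symbol had a median SD over arrays of 0.23, beside 0.81 for the 5 guanylate-binding proteins. The ranges of single genes overlapped between these families. Iigp1 had 0.34, 0.51 and 0.59, a mean of 0.48 ± 0.13, and Irgm1, which regulates the others, had 0.57, 0.74 and 0.11, a mean of 0.47 ± 0.32. Both were positive on all arrays. Irgm2, a relative of Irgm1, was on the other side at -0.38, -0.0043 and -0.65, a mean of -0.34 ± 0.33. Ifi47 stayed near 0, at -0.041, 0.040 and 0.21. Tgtp1 and Igtp belong to the same family but fall outside the symbol pattern. Tgtp1 had 0.27, 0.70 and -0.56, a mean of 0.14 ± 0.64. Igtp had -0.063, -0.13 and -0.56, a mean of -0.25 ± 0.27.

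In the HIN-domain family, whose members bind DNA, the genes lie together in the genome and had unlike ratios. Ifi202b had -0.58, -1.08 and -0.98, a mean of -0.88 ± 0.26, and Ifi204 had -0.58, -0.59 and -0.28, a mean of -0.48 ± 0.18. Both were negative on all arrays. Ifi203, which lies next to Ifi202b, had 0.24, 0.34 and -0.27, a mean of 0.10 ± 0.32. Outside these families, Ifi30, a lysosomal thiol reductase of antigen processing, was positive on all arrays at 0.52, 0.56 and 0.21, a mean of 0.43 ± 0.19, and Ifi35 had 0.20, 0.017 and -0.037.

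Position in the genome went with like ratios in some runs only. Of the 48 genes, 25 lay in 10 runs of members with at most 10 annotated protein-coding genes or transcribed pseudogenes between neighbours. The run of Ifitm5, Ifitm2, Ifitm1 and Ifitm3, with no gene between them, had positive means throughout, as did the pair of Ifi27l2a and Ifi27. Ifnar2 and Ifnar1 shared a negative and Irgm1 and Ifi47 a positive mean. In the Ifit run, the HIN-domain run and both runs of guanylate-binding proteins the means differed in sign. So did those of Stat5a (1 array) and Stat3, and of Mx1 and Mx2 (2 arrays). Other neighbouring genes of the genome were not compared, so an effect of position was not tested.

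**Figure D3:**
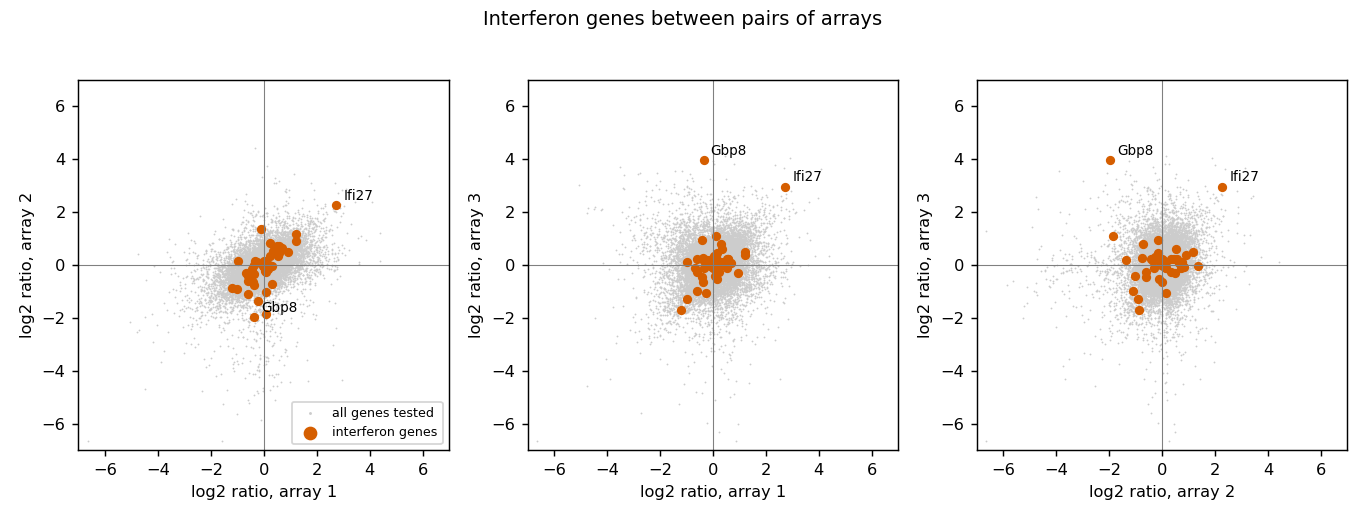
Deposited log2 ratios of all 19635 genes tested (grey) and of the 45 interferon genes (orange), array against array. Ifi27 lies far from 0 on both axes of each panel, while Gbp8 lies at -1.97 on array 2 and at 3.96 on array 3.

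Agreement in sign between arrays differed from pair to pair. Arrays 1 and 2 shared a sign in 30 of the 45, or 66.7%, against 69.8% of all genes. Arrays 1 and 3 shared one in 27, or 60.0%, against 57.2%, and arrays 2 and 3 in 20, or 44.4%, against 55.7%. These shares were not tested against each other. In 7 genes an array lay more than 1 log2 unit from both others, and each is counted by the array with the widest gap. That was array 1 in Ifit1, as in 4.45% of all genes. It was array 2 in Gbp2, Gbp4, Isg15 and Rsad2, as in 3.16% of all genes, and array 3 in Gbp8 and Ifit2, as in 8.75% of all genes. In Gbp8 all 3 arrays lay that far apart.

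Other genes of the pathway, listed by function, had their own ratios, and their counts of positive means stand beside 50.3% of all genes. Among 11 interferon genes themselves, which encode the secreted ligands, 5 had a positive mean, 10 changed sign between arrays and the median was -0.038. Their means ran from -0.75 ± 1.09 for Ifna11 to 0.32 ± 1.26 for Ifna2. Among 14 signalling genes 10 had a positive mean and the median was 0.13. Jak2, a kinase at the interferon gamma receptor, had 0.80, 0.53 and 2.62, a mean of 1.32 ± 1.13, with array 3 high, and Pias2, a SUMO ligase of the family that restrains Stat factors, had 1.50, 0.83 and 0.81, a mean of 1.05 ± 0.39. The lowest mean was that of the phosphatase Ptpn1, at -1.08 ± 2.63, with -3.20 and -1.92 on arrays 1 and 2 and 1.87 on array 3.

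Sensors of nucleic acid and their adaptors had a median of -0.11 over 12 genes, 5 of them with a positive mean. Tbk1, the kinase that activates Irf3, stood at 0.76 ± 0.29 with 0.68, 0.52 and 1.08 on arrays 1, 2 and 3, on the side opposite to Irf3. Sting1, the adaptor of cytosolic DNA sensing, was the lowest of them at -0.36 ± 0.32. In antigen presentation 12 of 15 genes had a positive mean, beside 50.3% of all genes, and the median was 0.28. Interferon gamma is a known inducer of such genes, and its part in these ratios was not tested. B2m, the light chain of class I molecules, had 1.51, 1.10 and 1.21, a mean of 1.28 ± 0.21, and the class II chain H2-Ab1 had 1.22, 0.72 and 1.96, a mean of 1.30 ± 0.62. The class I chain H2-D1 was lowest, at -0.69 ± 0.50. Of 33 other interferon-stimulated genes 20 had a positive mean, and their median of 0.10 lay between -0.60 ± 0.49 for Uba7, the enzyme that activates Isg15, and 0.50 ± 0.54 for Parp14. At an unadjusted p of 0.05 in limma, 0 ligand, 3 signalling, 1 sensing, 3 antigen presentation and 1 of the other stimulated genes were called, beside 16.8% of all genes, and 0 of any list passed the adjusted p.

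Immune and endothelial cells can carry interferon-stimulated RNA, and their markers were looked at beside these genes. Of 17 macrophage markers 10 had a positive mean, beside 50.3% of all genes. Their median was 0.16, with a range from -0.80 ± 0.24 for Itgam to 0.67 ± 0.46 for Fcer1g. Of 13 lymphocyte markers 7 had a positive mean and the median was 0.015, from -0.39 for Klrb1c to 0.44 for Cd79b. Of 14 endothelial markers 7 had a positive mean and the median was 0.011, from -0.86 for Cd34 to 0.64 for Ramp2. Over these marker lists the highest mean was 0.67, that of Fcer1g, and the lowest was -0.86, that of Cd34. The levels of the markers are not given by a ratio, and the part of such cells in the ratios of interferon genes was not tested.

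**Figure D4:**
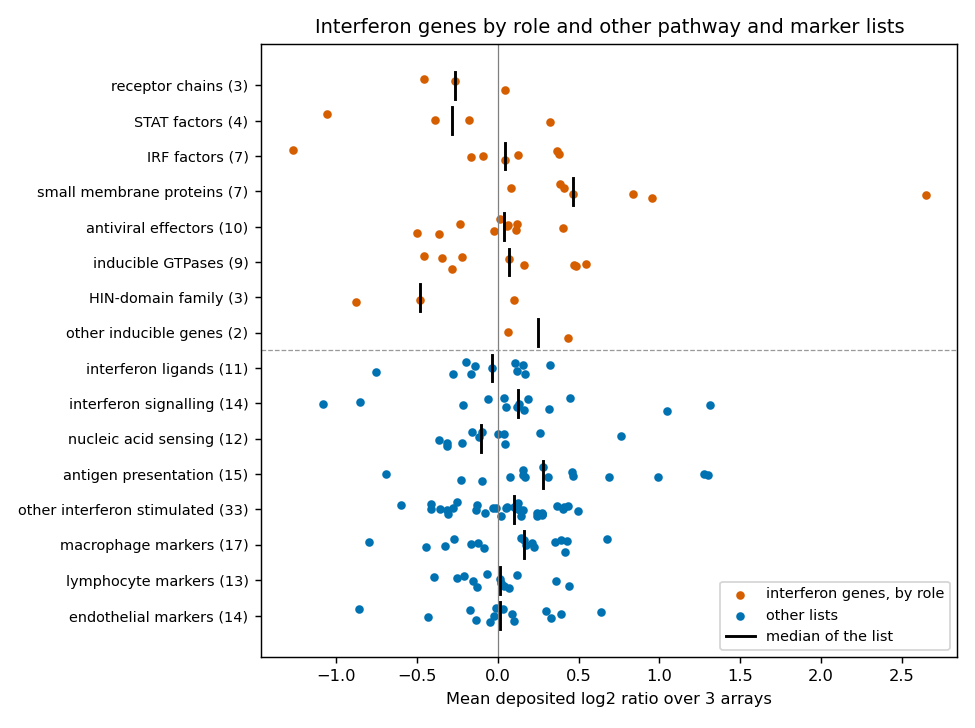
Mean deposited log2 ratio over 3 arrays (x axis) of the interferon genes by role (orange) and of other pathway and marker lists (blue), 1 point per gene, with the number of genes in brackets and a black bar at each median. The small membrane proteins have a median of 0.46, while the medians of the 3 marker lists lie between 0.011 and 0.16.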

How the data were processed

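Microdissected tissue was compared on 3 arrays of the Compugen mouse oligo library, with 13.5 dpc kidney RNA labelled as channel 1 and RNA of 10.5 dpc metanephric mesenchyme as channel 2, per the labels. The authors deposited log2 ratios of the channels, with the base taken from the values: raised as powers of 2, 99.8%, 99.7% and 99.8% of them on arrays 1, 2 and 3 gave a ratio with 3 decimals, to within 0.01 of a unit of the last decimal place. Images were read with ImaGene 5.5 and normalized by print-tip loess and between arrays in R, per the labels, which also name a lowess curve over 20% of the data and a control value floor of 10. Numerator, dye per array and build are not given in the sources used here. Background and saturation of spots were not examined, because only ratios were analysed. Since normalization centres every array, a change shared by most genes is removed.

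Of 22702 spots, 883 control spots were left out, which left 21819 oligos, of which 21094 had values on all 3 arrays. Oligos of 1 symbol were averaged, giving 19635 genes with the unnamed oligos. Limma 3.58.1 in R 4.3.3 tested each mean against 0 (intercept only, eBayes, two-sided, Benjamini-Hochberg over all genes). It was run on simulated data with normal noise independent between arrays, which does not show how it behaves on these arrays. The number of arrays limits the precision. Genes described in full were those with a mean of at least 0.5 in size and 1 sign, all receptors, Stat and Irf factors, Isg15, Usp18, Bst2, Rsad2 and the Mx genes where measured, genes whose oligos differ in sign (none here), and genes with an array more than 1 from both others. Of other lists, genes of at least 1 in size and 1 sign or the highest and lowest mean were named, and the remaining genes were named in brief. Ptpn1 and H2-D1 were added after their values were seen. The genes, lists and role groups were chosen with earlier results of these data known. Promoter windows came from RefSeq, GRCm38.p6, and were searched in Python 3.11.15.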

Additional observations from a re-analysis of the deposited data

How the results depend on the processing

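The count of genes past limma's adjusted p of 0.05 over all genes was 1, and it was 0 without any 1 of the arrays, 0 with the arrays scaled to one median absolute deviation and 0 without values at the lowest ratio. It stayed at 1 with arrays centred on their medians, genes on at least 2 arrays admitted, the median of a gene's oligos, each oligo tested on its own, or array weights. Of the interferon genes 0 passed in each of these 11 settings. The count with a positive mean, 27, ran from 21 to 28 with 1 array left out, and was 22 with array weights. The count of at least 1 in size on 1 side, 3, ran from 3 to 5 with 1 array left out. Without array 3 it held Ifi27, Ifi27l2a, Ifitm3, Irf3 and Gbp8, and Stat3 stood at -0.95. The median of 0.061 ran from -0.022 to 0.083 with 1 array left out and was -0.034 with array weights. Of 28 genes described in full with 3 values, 11 changed the sign of their mean when 1 array was left out: Gbp4, Gbp8, Ifit1, Ifit2, Ifngr1, Irf2, Irf7, Irf9, Isg15, Rsad2 and Usp18. With array weights 4 of these did so, namely Gbp8, Ifit2, Irf2 and Rsad2. The cause of these shifts was not tested. No paired analysis was possible because there is 1 group of arrays. Dim spots could not be examined from ratios alone.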
